A study of Homo sapiens with 4 samples.

Results

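The genes described here are 10 transcriptional targets of the hypoxia-inducible factors (HIF) that lie outside glycolysis. They were taken by symbol (VEGFA, CA9, ADM, BNIP3, BNIP3L, NDRG1, EGLN1, EGLN3, P4HA1 and ANKRD37), and all 10 were found among the 18382 gene symbols of the series. RNA sequencing was done on Huh7 and Huh1, established human hepatocellular carcinoma cell lines, transfected with an siRNA against ODC1 or with a negative control siRNA. ODC1 encodes ornithine decarboxylase, which starts polyamine synthesis. The 4 groups were Huh7 with ODC1 siRNA, Huh7 with control siRNA, Huh1 with ODC1 siRNA and Huh1 with control siRNA, and each was represented by 1 library, so no value below has a replicate within its group. No oxygen tension, drug or siRNA dose is given in the sources used here, and each line is a single tumour-derived line.

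HIF is a pair of proteins, an oxygen-sensitive alpha subunit (HIF1A or EPAS1) and the stable partner ARNT, which binds a short DNA word called the hypoxia response element. In the presence of oxygen, prolyl hydroxylases such as EGLN1 mark the alpha subunit for destruction through VHL, so that HIF activity is set mainly at the protein level, which RNA sequencing does not measure. Its targets adapt cells to low oxygen, and in hepatocellular carcinoma they are known for vessel growth, acid export and a shift to glycolysis. The question was whether the lower glycolysis transcripts seen in Huh7 after ODC1 siRNA went together with lower transcripts of other HIF targets.

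The deposited values carry no header and were taken as RPKM, the read density per transcript length and library depth, since their lowest steps scale with transcript length. Each library held from 10215332 to 13384836 reads, judged by the spacing of its lowest values. ODC1 itself stood at 7.50 RPKM with ODC1 siRNA and 167 RPKM with control siRNA in Huh7, so that 4.49% remained, and at 25.01 and 103 RPKM in Huh1, so that 24.2% remained. The knockdown was therefore deeper in Huh7. All 12 hepatocyte markers examined were above 1 RPKM in every library. The 4 endothelial markers that were listed summed to at most 0.0247 RPKM, and of 5 blood cell markers only CD68 was above 1 RPKM. The 6 fibroblast markers summed to 370 and 284 RPKM in Huh7 with ODC1 and control siRNA, mostly from COL1A1 and LUM, and to 15.7 and 12.1 RPKM in Huh1. The part of this difference in the results below was not tested.

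In Huh7, 9 of the 10 HIF targets were lower with ODC1 siRNA than with control siRNA, against 50.3% of all genes tested, and ADM was higher. In Huh1 5 were lower, against 45% of all genes, and 5 higher. Log2 fold changes were taken on RPKM + 1, which understates the change of weakly expressed genes. Their median was -0.59 in Huh7 and 0.04 in Huh1, against -0.0020 and 0.02 over all 12039 genes tested, which are those reaching 1 RPKM in 1 library or more. BNIP3 and CA9 were at least 2-fold lower in Huh7, which makes 2 of 10 against 0.407% of all genes tested. At least 1.5-fold lower were 6 of 10, against 3.06% of all genes, and none was 1.5-fold higher, against 2.42%. In Huh1 no member reached 1.5-fold in either direction, against 1.25% of all genes, and none reached 2-fold, against 0.0748%. These are counts of size with no p-value, since a line has 1 library for each siRNA. In such bulk libraries, fewer cells expressing a gene and less of its RNA per cell cannot be told apart.

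**Figure D1:**
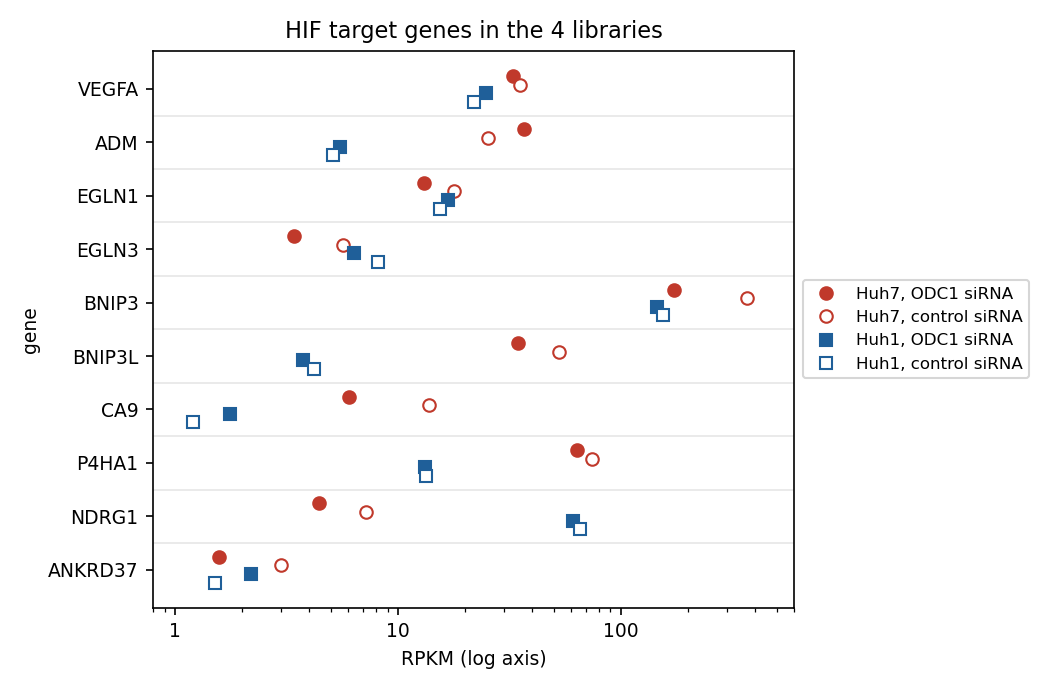
RPKM (log axis) of the 10 HIF targets in the 4 libraries, 1 point per library, with filled symbols for ODC1 siRNA and open symbols for control siRNA. BNIP3 and CA9 in Huh7 show the widest gaps between filled and open symbols, and NDRG1 is the only member far lower in Huh7 than in Huh1.

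Over both lines, the siRNA effect was tested with limma, using line and siRNA as terms. None of the 10 members passed the threshold of 0.05 on the Benjamini-Hochberg adjusted p, against 2.12% of all genes tested. An unadjusted p under 0.05 was reached by 5 of the 10 (ADM, BNIP3, BNIP3L, NDRG1 and EGLN3), against 19% of all genes. The fit has 1 residual degree of freedom, which is the difference of the effect between the lines, so a gene that differs with siRNA in Huh7 alone has a large residual and can hardly be called. A test of that difference itself is not possible with these 4 libraries.

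The promoters of 7 members were present in the RefSeq table used (GRCh38.p14, from 250 bases before to 50 after the transcript start) and were searched on both strands for the core of the hypoxia response element, which reads either ACGTG or, less often, GCGTG. The word ACGTG was found in 5 of the 7 (71.4%), against 21.4% of 35116 promoters in the table, and either core was found in 6 of 7 (85.7%), against 48.4%. The median GC content was 69.7% in the member promoters and 58.7% in all, and the part of base composition in these shares was not tested. The stretches below come from BNIP3 and CA9, the members at least 2-fold lower in Huh7, from ANKRD37, which has the most ACGTG words, and from ADM, the member that was higher. Each is of the gene's own strand, 5′ to 3′, and lies before the RefSeq start, with the core words on either strand in capitals. GENCODE release 29 has other transcripts that start further upstream for CA9, ADM and ANKRD37, and their 30 bases lie in exons of the gene there. The 70 bases of BNIP3 overlap no exon of the gene, which on the minus strand starts at chr10:131982013 there, next to the stretch. A word that reads CACGTG holds ACGTG on both strands and was counted for each, and words that overlap are joined in capitals.
BNIP3: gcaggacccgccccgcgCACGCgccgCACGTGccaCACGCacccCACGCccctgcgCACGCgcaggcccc
CA9: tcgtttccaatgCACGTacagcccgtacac
ANKRD37: ctcCACGTGccagtgtttgtgtACGTGcgg
ADM: gagagcaggagcgcGCGTGgctgaggaaag
The stretches lie at chr10:131982014-131982083 on the minus strand for BNIP3, and on the plus strand at chr9:35673898-35673927 for CA9, chr4:185396676-185396705 for ANKRD37 and chr11:10304958-10304987 for ADM. BNIP3 held 6 core words in its promoter, of which 2 were ACGTG, ANKRD37 held 3 ACGTG words, and ADM held a single word, GCGTG. EGLN3 held neither core in this window. A match describes the letters and does not show that HIF binds there.

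Among the secreted factors, VEGFA encodes the growth factor that drives vessel sprouting. Its transcript (NM_001171627) stood at 32.9 RPKM with ODC1 siRNA and 35.2 RPKM with control siRNA in Huh7, and at 24.8 and 21.9 RPKM in Huh1. The ratio was 93.4% in Huh7 (95% counting interval 76.7% to 114%) and 113% in Huh1 (89.9% to 142%), so the counting error alone covers no change in both lines. The limma fit over both lines put it at 0.04 on the log2 scale (SE 0.09, adjusted p = 0.864). ADM encodes adrenomedullin, a vasodilator peptide. It stood at 36.9 RPKM with ODC1 siRNA and 25.3 RPKM with control siRNA in Huh7, a ratio of 146% (131% to 163%), and at 5.53 and 5.10 RPKM in Huh1, a ratio of 108% (83.9% to 140%). ADM was thus the member that went the other way in Huh7, and its log2 fold change over both lines, 0.31 (SE 0.12), did not pass (limma adjusted p = 0.207).

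EGLN1 and EGLN3 encode prolyl hydroxylases that inactivate HIF alpha subunits and are themselves induced by HIF, forming a negative feedback. EGLN1 stood at 13.05 RPKM with ODC1 siRNA and 17.8 RPKM with control siRNA in Huh7, and at 16.8 and 15.5 RPKM in Huh1. It was lower with ODC1 siRNA in Huh7 (73.3%, counting interval 67.5% to 79.5%) and slightly higher in Huh1 (109%, 101% to 117%). EGLN3 was lower in both lines. It stood at 3.42 RPKM with ODC1 siRNA and 5.65 RPKM with control siRNA in Huh7, a ratio of 60.4% (46.9% to 78.1%), and at 6.33 and 8.13 RPKM in Huh1, a ratio of 77.9% (64.7% to 93.8%). Of the 10 members EGLN3 had the lowest adjusted p over both lines, with a log2 fold change of -0.45 (SE 0.12, limma adjusted p = 0.101), which missed the threshold.

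BNIP3 and BNIP3L encode related receptors on the outer mitochondrial membrane that direct mitochondria to autophagy. BNIP3 was the most abundant member in every library. It stood at 173 RPKM with ODC1 siRNA and 368 RPKM with control siRNA in Huh7, a ratio of 46.9% (counting interval 45.4% to 48.4%). In Huh1 it stood at 145 and 155 RPKM, a ratio of 93.5% (90.1% to 97.1%). With ODC1 siRNA the Huh7 level thus came close to those of Huh1. The log2 fold change was -1.09 in Huh7 and -0.10 in Huh1, and -0.59 over both lines (SE 0.18, limma adjusted p = 0.134). GENCODE release 29 names 39 BNIP3 pseudogenes, and reads shared with such copies may have been assigned in ways the sources used here do not give. BNIP3L stood at 34.6 RPKM with ODC1 siRNA and 52.9 RPKM with control siRNA in Huh7 (65.4%, 61.1% to 70.1%), and at 3.77 and 4.21 RPKM in Huh1 (89.7%, 72.4% to 111%). Both receptors were therefore lower in Huh7 beyond counting error, and the BNIP3L log2 fold change over both lines was -0.36 (SE 0.12, limma adjusted p = 0.167).

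**Figure D2:**
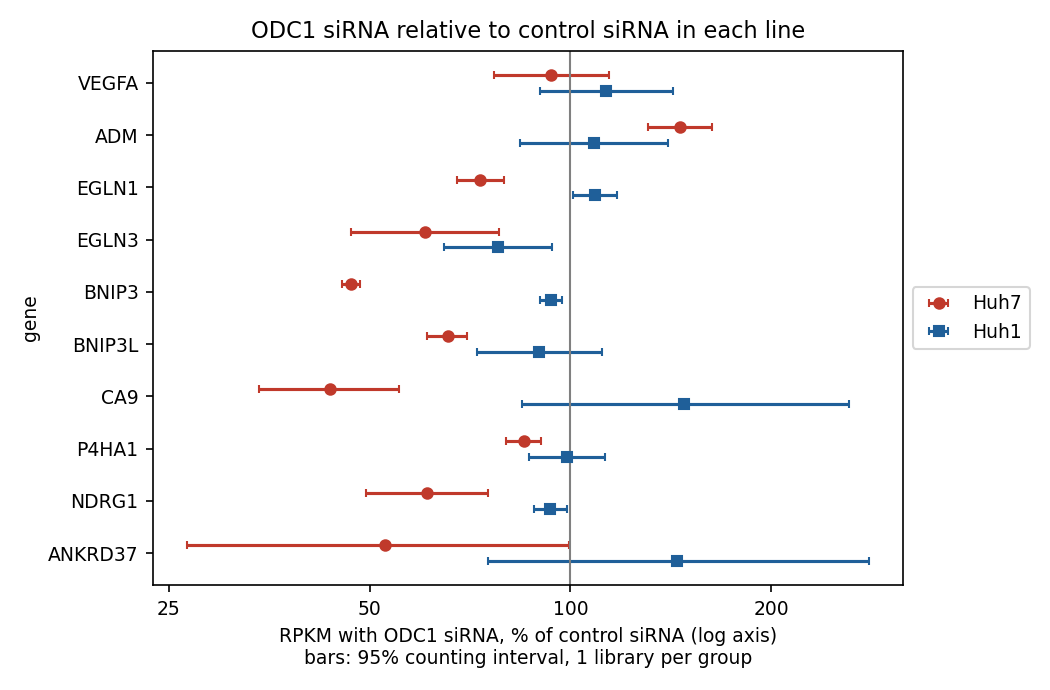
RPKM with ODC1 siRNA as a percentage of control siRNA (log axis) for each member, in Huh7 (circles) and Huh1 (squares). Bars are 95% counting intervals for 1 library per group, and in Huh7 8 intervals lie below 100% and that of ADM lies above it. Such intervals were not computed for all genes, so the count has no background.

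CA9 encodes carbonic anhydrase IX, a cell surface enzyme that handles acid and is often used as a marker of hypoxic tumour cells. It stood at 6.05 RPKM with ODC1 siRNA and 13.9 RPKM with control siRNA in Huh7, a ratio of 43.6% (34.1% to 55.3%), which was the lowest of the members. These values rest on 96 and 263 reads. In Huh1 it was low, at 1.78 and 1.20 RPKM from 31 and 25 reads, and the interval of the ratio was wide (148%, 84.5% to 261%). The log2 fold change was -1.08 in Huh7 and 0.33 in Huh1, and -0.37 over both lines (SE 0.27, limma adjusted p = 0.501). The gene shares 643 exonic bases with the antisense gene ARHGEF39 (listed as C9orf100), which stood at 10.8 and 11.1 RPKM in Huh7 with ODC1 and control siRNA. Whether reads were counted by strand is not given in the sources used here.

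P4HA1 encodes a catalytic subunit of collagen prolyl 4-hydroxylase, which collagen needs to fold. It stood at 63.4 RPKM with ODC1 siRNA and 74.5 RPKM with control siRNA in Huh7, a ratio of 85.0% (80.1% to 90.3%), and at 13.2 and 13.4 RPKM in Huh1 (98.8%, 86.7% to 113%). Its difference in Huh7 was the smallest of the 8 whose interval lay below 100%, and it did not pass over both lines (log2 fold change -0.12, SE 0.09, limma adjusted p = 0.483). NDRG1, a stress-responsive gene repressed by N-myc, stood at 4.42 RPKM with ODC1 siRNA and 7.24 RPKM with control siRNA in Huh7 (61.02%, 49.4% to 75.1%). In Huh1, where it was far more abundant, it stood at 61.03 and 65.4 RPKM (93.2%, 88.04% to 98.7%). The NDRG1 log2 fold change over both lines was -0.35 (SE 0.12, limma adjusted p = 0.174).

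ANKRD37 encodes a small ankyrin repeat protein known as a HIF target. It was the least abundant member in Huh7, at 1.57 RPKM with ODC1 siRNA and 2.98 RPKM with control siRNA, from 15 and 34 reads. The ratio was 52.7%, with an interval of 26.7% to 99.3% that nearly reaches no change. In Huh1 it stood at 2.19 and 1.52 RPKM (144%, 75.2% to 280.2%), and over both lines at -0.14 (SE 0.22, limma adjusted p = 0.766). It shares 909 exonic bases with the antisense gene UFSP2, which stood at 6.17 and 6.76 RPKM in Huh7 and at 10.6 and 8.95 RPKM in Huh1 with ODC1 and control siRNA. Across the members, the counting interval of the ratio lay below 100% for 8 and above it for 1 in Huh7. In Huh1 it lay below 100% for 3 (BNIP3, NDRG1 and EGLN3) and above it for 1 (EGLN1). Intervals were computed for the members and ODC1 only, so these counts have no share over all genes beside them. An interval also narrows as the read number rises. These exact binomial intervals cover counting error only and not the spread between cultures. They use read numbers that came out whole for 5 members (CA9, ADM, BNIP3, NDRG1 and ANKRD37) and are estimates from the GENCODE length for the others. For VEGFA that length, 541 bases, is of a short model, so its interval is rough.

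The glycolysis genes were then set beside the HIF targets. Of the 20 glycolysis genes known as HIF targets, 18 were lower with ODC1 siRNA in Huh7, against 50.3% of all genes, with a median log2 fold change of -0.43. At least 2-fold lower were 4, against 0.407% of all genes, and at least 1.5-fold lower were 7, against 3.06%. In Huh1 16 of the 20 were lower, against 45% of all genes, with a median of -0.05, and none reached 1.5-fold on RPKM + 1. In the 9 other glycolysis and sugar or lactate transport genes tested, the medians were -0.09 in Huh7 and -0.12 in Huh1. None of the 9 was 1.5-fold lower in either line, and 1 was 1.5-fold higher in Huh7, the lactate dehydrogenase gene LDHB, at 5.72 RPKM with ODC1 siRNA and 2.68 RPKM with control siRNA. Thus in Huh7 the HIF targets inside and outside glycolysis were both shifted downward. In Huh1 neither held a gene 1.5-fold lower on RPKM + 1, but only 0.332% of all genes did so. On RPKM alone PFKFB4 stood at 62.3% of control in Huh1 and SLC2A3 at 51.5%, both at low levels. The members' effect was lower in Huh7 than in Huh1 for 9 of 10, that of the HIF-driven glycolysis genes for 19 of 20, and that of all genes tested for 53.3%. The lower glycolysis transcripts in Huh7 were known from these same libraries before the lists were made. The Huh7 counts of the glycolysis genes therefore restate that result and are no separate support for it. The lists share their libraries, so these counts describe the 4 libraries and do not test the lists.

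**Figure D3:**
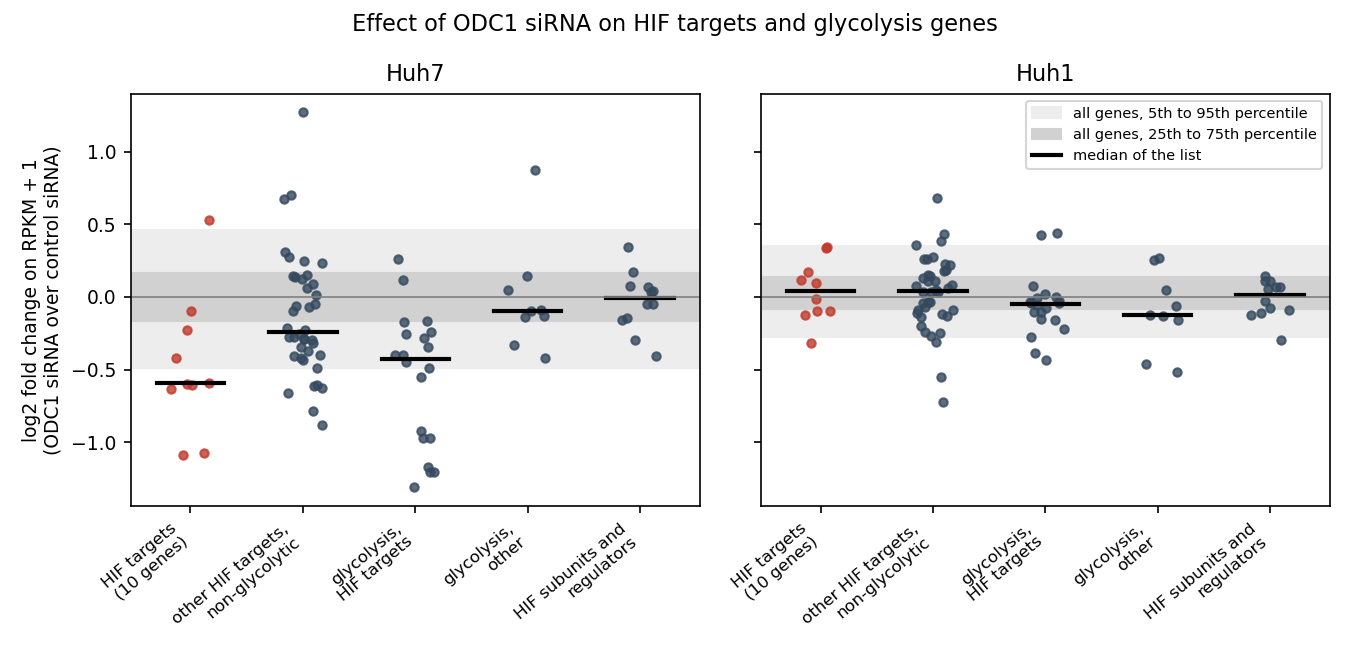
Log2 fold change on RPKM + 1 of ODC1 siRNA over control siRNA in Huh7 and Huh1, 1 point per gene, with a black line at the median of each list and grey bands for all genes tested. In Huh7 the 10 HIF targets have a median of -0.59 and the HIF-driven glycolysis genes one of -0.43, while in Huh1 the medians are 0.04 and -0.05.

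Among these glycolysis genes, the glucose transporter gene SLC2A1 stood at 16.8 RPKM with ODC1 siRNA and 33.9 RPKM with control siRNA in Huh7, and at 17.2 and 16.9 RPKM in Huh1. PFKFB3, whose product makes an activator of phosphofructokinase, stood at 25.9 and 51.7 RPKM in Huh7, and at 49.29 and 49.3 RPKM in Huh1. Both therefore showed a Huh7 difference with almost none in Huh1, as BNIP3 did. PFKFB4, of the same enzyme family, was at -1.21 in Huh7 and -0.43 in Huh1, the aldolase gene ALDOC at -1.31 and -0.22, and PDK1, whose product blocks pyruvate entry into mitochondria, at -1.17 and -0.04. None of these 5 passed over both lines (limma adjusted p from 0.0545 for PFKFB4 to 0.226 for SLC2A1), although PFKFB4 did so under 2 of 8 other settings and ALDOC under 1. LDHA, which makes lactate, was the only called gene of the 20 (-0.66, SE 0.11, limma adjusted p = 0.0265), and the hexokinase gene HK1 the only one of the other glycolysis genes (-0.42, SE 0.08, adjusted p = 0.0452), where 0.615% of all genes were called lower. Both calls were lost under 6 of 8 other settings. Among these were the fits with no filter, no trend or no line term, which called 0 of all genes and so say nothing of stability. Of the remaining named genes of the other glycolysis list, LDHB (0.40), SLC2A2 (-0.44), PKLR (0.15), SLC16A1 (-0.12) and ENO3 (-0.11) did not pass over both lines.

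Other HIF targets outside glycolysis were less uniform. Of 46 listed, 40 were abundant enough to be tested. In Huh7 26 of these were lower with ODC1 siRNA (65%, median -0.24), against 50.3% of all genes tested. In Huh1 17 were lower (42.5%, median 0.04), against 45% of all genes, so the Huh1 count is near the background. At least 1.5-fold lower in Huh7 were 6 of the 40, and 3 were at least 1.5-fold higher, against 3.06% and 2.42% of all genes. Over both lines 2 fell, against 0.615% of all genes, and 1 rose, against 1.5%. TMEM45A, a membrane protein gene, fell (22.8 with ODC1 and 39.996 RPKM with control siRNA in Huh7, and 1.99 and 3.39 RPKM in Huh1, log2 fold change -0.67, SE 0.11, limma adjusted p = 0.0265). IGFBP1, which encodes a secreted binder of insulin-like growth factors, fell as well (1.32 and 2.53 RPKM in Huh7, 3.51 and 6.43 RPKM in Huh1, -0.66, SE 0.13, adjusted p = 0.0448). Its relative IGFBP3 rose (223 and 92.0 RPKM in Huh7, 32.8 and 20.1 RPKM in Huh1, 0.97, SE 0.12, adjusted p = 0.0157). The IGFBP1 call was lost under 7 of 8 other settings, that of TMEM45A under 5 and that of IGFBP3 under 3. The IGFBP3 losses were only in the fits with no filter, no trend or no line term, which called 0 of all genes, ODC1 included. These fits also count among the losses of IGFBP1 and TMEM45A and say nothing of stability.

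FAM162A, a mitochondrial protein gene, resembled BNIP3 in that it stood at 45.0 RPKM with ODC1 siRNA and 83.6 RPKM with control siRNA in Huh7, and at 114 and 122 RPKM in Huh1. MXI1, which encodes an antagonist of MYC, was at -0.66 in Huh7 and -0.14 in Huh1. EDN1, the gene of the vasoconstrictor endothelin, stood at 29.5 RPKM with ODC1 siRNA and 17.8 RPKM with control siRNA in Huh7, and at 11.4 and 10.3 RPKM in Huh1. Like ADM it was higher in Huh7. None of these 3 passed over both lines (limma adjusted p of 0.138, 0.175 and 0.15).

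Of the HIF subunits and their regulators, 12 of 14 were abundant enough to be tested, with medians of -0.0086 in Huh7 and 0.01 in Huh1. In each line 6 of the 12 were lower, against 50.3% of all genes in Huh7 and 45% in Huh1, so these counts are near the background. HIF1A, the alpha subunit gene, stood at 110.2 RPKM with ODC1 siRNA and 147 RPKM with control siRNA in Huh7, and at 25.2 and 31.3 RPKM in Huh1. It fell over both lines (-0.35, SE 0.07, limma adjusted p = 0.0494), a call at the edge of the threshold. The call was lost under 6 of 8 other settings, where adjusted p ranged up to 1.00. Among these were the fits with no filter, no trend or no line term, which called 0 of all genes. In the other losses the limma adjusted p was at most 0.0742, with the filter at 5 RPKM. HIF1A was the only call among the 12, where 2.12% of all genes were called. EPAS1, the other main alpha subunit gene, was at 0.04 over both lines (adjusted p = 0.824) and ARNT at 0.07 (adjusted p = 0.726). EGLN2, the third prolyl hydroxylase gene, was at 0.34 in Huh7 and -0.03 in Huh1, and over both lines the coactivator gene EP300 was at 0.12 and the VHL complex genes CUL2, TCEB1 and TCEB2 were at -0.14, -0.12 and -0.20, all without passing.

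Between the lines, most members differed in level. The line term of the same limma fit, Huh7 minus Huh1, called 8 of the 10 members, against 73.9% of all genes tested. Of the members, 6 were higher in Huh7, against 43.1% of all genes, and 2 were lower, against 30.8%. The count of calls is thus near the background. With no filter on low values the calls of CA9, BNIP3, VEGFA and EGLN3 were lost, with adjusted p between 0.0839 and 0.278. In this contrast the other siRNA serves as the repeat of a line, and each line is its own tumour's descendant. The hepatocyte markers summed to 3056 and 3828 RPKM in Huh7 against 5908 and 6539 RPKM in Huh1 with ODC1 and control siRNA, and their part in the differences was not tested. The direction was mixed. BNIP3L was 9.17-fold higher in Huh7 with ODC1 siRNA and 12.6-fold with control siRNA (log2 difference 3.13, SE 0.12, adjusted p = 8.62e-08). ADM was 6.67-fold and 4.95-fold higher (2.32, SE 0.12, adjusted p = 4.42e-07), and P4HA1 4.80-fold and 5.58-fold (2.29, SE 0.09, adjusted p = 6.99e-08). These 3 stood apart in the lines whichever siRNA was used. BNIP3L shares 330 exonic bases with the antisense gene PNMA2, which was also higher in Huh7. PNMA2 stood at 12.4 and 11.7 RPKM in Huh7 against 0.226 and 0.222 RPKM in Huh1 with ODC1 and control siRNA. Its part in the BNIP3L difference was not tested. CA9 was 3.40-fold higher in Huh7 with ODC1 siRNA and 11.5-fold with control siRNA (2.05, SE 0.27, adjusted p = 0.000153). BNIP3 was 1.19-fold and 2.37-fold higher (0.75, SE 0.18, adjusted p = 0.0052), and VEGFA 1.33-fold and 1.61-fold (0.53, SE 0.09, adjusted p = 0.000796).

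NDRG1 was the clearest exception. Its log2 difference was -3.26 (SE 0.12, adjusted p = 6.54e-08), so that Huh7 held 0.0724 of the Huh1 RPKM with ODC1 siRNA and 0.111 of it with control siRNA. EGLN3 was also lower in Huh7 (-0.59, SE 0.12, adjusted p = 0.00214). EGLN1 (-0.08, SE 0.13, adjusted p = 0.602) and ANKRD37 (0.17, SE 0.22, adjusted p = 0.491) did not pass, and both were higher in Huh7 with control siRNA and lower with ODC1 siRNA. In Huh7 with control siRNA the levels ran from 368 RPKM for BNIP3 through P4HA1, BNIP3L, VEGFA, ADM, EGLN1, CA9, NDRG1 and EGLN3 down to 2.98 RPKM for ANKRD37. In Huh1 with control siRNA NDRG1 was in second place after BNIP3, and CA9 was last. The order of neighbours has no replicate error to set against it.

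**Figure D4:**
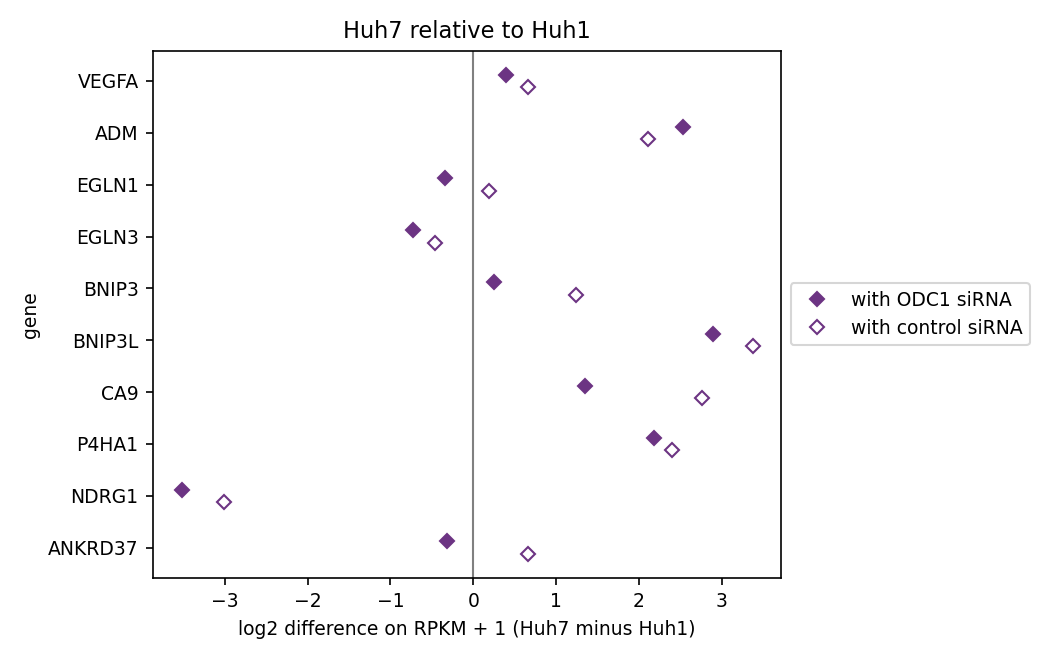
Log2 difference on RPKM + 1 between Huh7 and Huh1 for each member, with ODC1 siRNA (filled) and with control siRNA (open). Points right of 0 are higher in Huh7, and for CA9, BNIP3 and ANKRD37 the filled point lies furthest left of the open one.

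The HIF alpha genes also differed between the lines. HIF1A was higher in Huh7 (log2 difference 2.14, SE 0.07, limma adjusted p = 3.57e-08) and EPAS1 lower, at 17.8 and 18.5 RPKM in Huh7 against 61.5 and 55.7 RPKM in Huh1 with ODC1 and control siRNA (-1.64, SE 0.08, adjusted p = 4.55e-07). These are transcript levels and not protein levels.

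The genes outside the list whose 4 values lay nearest the members' mean profile were sought among 9500 genes reaching 5 RPKM in 1 library or more. Each gene's log2(RPKM + 1) values were centred on their own mean, and likeness was the Euclidean distance over the 4 libraries. The nearest were SH3D21 (0.0269), EPB49 (0.0664), TMX3 (0.067), TCF7L2 (0.0938) and ANGEL1 (0.0975). SH3D21 stood at 4.18 RPKM with ODC1 siRNA and 6.26 RPKM with control siRNA in Huh7, and at 2.76 and 2.57 RPKM in Huh1. The members themselves lay further from their mean, from 0.351 for VEGFA to 3.998 for NDRG1, so the mean profile is typical of few of them.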

How the data were processed

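Total RNA was turned into TruSeq libraries, per the labels' protocols. The submitters' processing notes name CASAVA 1.8.2 and TopHat2 2.0.9 and the genome build hg19. How reads were counted, by which annotation and whether by strand is not given in the sources used here. The deposited files have no header and hold 1 value per RefSeq transcript for 18398 transcripts, taken as RPKM by the authors from the way the low values scale with length. Depth was recovered from the steps between values under 0.3 RPKM and GENCODE release 29 lengths. Between 53.1% and 55.1% of the low values compared stood in whole-number ratios (relative tolerance 1e-06), so the authors' counting may have split reads, and a count model was not used. The members' read numbers are whole within 0.01 reads where called whole. Counting intervals are exact Clopper-Pearson intervals at 95%.

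Values were analysed as log2(RPKM + 1) for genes that reached 1 RPKM in 1 library or more. limma 3.58.1 (R 4.3.3) was fitted with an intensity trend, which gave 7.42 prior degrees of freedom, with line and siRNA as terms and Benjamini-Hochberg adjustment over all 12039 genes. The line pairs the libraries with ODC1 and control siRNA and is the block. The spread behind the p-values is the difference of the siRNA effect between the lines, moderated with the prior that limma takes from all genes. It is not a spread between cultures, and the labels do not tie the libraries to separate cultures of a line.

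The fit was tested on simulated data, with 200 of at least 11713 genes changed alike in both lines, 5 simulations and a dispersion of 0.005. The changed genes were drawn from those with a mean of at least 5 RPKM in 1 library or more. Recovery was thus not measured for weaker genes such as ANKRD37. Nor was it measured for genes that differ with siRNA mainly in 1 line, such as BNIP3 (log2 fold change -1.09 in Huh7 and -0.10 in Huh1). The rates below do not apply to such genes. For the siRNA term the fit recovered 83.9% of genes changed 1.5-fold and 97.9% of those changed 2-fold, and 14.2% of its calls were unchanged genes. With a trend on counting variance this share was 4.39%. For the line term it was 12.9%.

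The members and lists were chosen with earlier results of these data known. Named were all members, ODC1, HIF1A, EPAS1, ARNT, in each list every called gene and the 6 with the largest mean change, and the 5 genes nearest the mean profile. Genes named outside this rule were chosen after their values were seen. Alternatives were scaling to upper quartiles or quantiles, adding 0.1 in place of 1 RPKM, filtering at 5 RPKM or not at all, counting from 1.5-fold, fitting limma with no trend or a counting-variance trend, dropping either term, and leaving out each library. Those for genes other than the members were added after the data were seen.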

Additional observations from a re-analysis of the deposited data

Results flagged for a closer look

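With 1 library per group, the siRNA effect had opposite directions in Huh7 and Huh1 for 4 members and for the medians of 3 lists, and in none of these cases could the difference be tested. The share of all genes with opposite directions was not counted, so these counts have no background. Given as the Huh7 log2 fold change minus that of Huh1, the difference was -1.41 for CA9, -0.97 for ANKRD37, -0.54 for EGLN1 and -0.27 for VEGFA. The 95% counting intervals of the ratios in the 2 lines did not overlap for CA9 and EGLN1, and overlapped for ANKRD37 and VEGFA. For the list medians the difference was -0.64 for the 10 HIF targets, -0.28 for the other HIF targets outside glycolysis and -0.0227 for the HIF subunits and regulators. The medians of all genes tested were opposite as well, at -0.0020 in Huh7 and 0.02 in Huh1. The value for the subunits and regulators is thus near the background. The Huh1 median of the 10 HIF targets turned to -0.0043 with quantile normalization and -0.0158 with the filter at 5 RPKM, so their medians had the same sign in both lines there. The remaining ODC1 transcript also differed between the lines, at 4.49% of control in Huh7 and 24.2% in Huh1, and its part in these differences was not tested.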

How the results depend on the processing

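No member was called for the siRNA effect over both lines under any of the 8 alternative fits that gave a test, although 3 of these (no filter, no trend, no line term) called 0 of all genes and so say nothing of stability. The number of members called between the lines was 8 under 6 alternatives, 6 without the siRNA term and 4 with no filter. In Huh7, 2 members were at least 2-fold changed under each normalization, pseudocount and filter tried, and 6 under the 1.5-fold rule. The Huh7 median lay between -0.66 and -0.59 in these settings and the Huh1 median between -0.02 and 0.05. Leaving out a library leaves only the siRNA effect of the other line, with no test. The values are therefore the single-line effects and are no separate check. Their signs differed between Huh7 and Huh1 for VEGFA (-0.10 and 0.17), CA9 (-1.08 and 0.33), EGLN1 (-0.42 and 0.12) and ANKRD37 (-0.63 and 0.34). The same held for EPAS1 (-0.0523 and 0.14), EGLN2 (0.34 and -0.0275), SLC2A1 (-0.97 and 0.0196) and LDHB (0.87 and -0.0631). Likewise, the line difference without a library is that under 1 siRNA. With ODC1 and control siRNA it was -0.35 and 0.19 for EGLN1, and -0.31 and 0.66 for ANKRD37. The ANKRD37 line difference over both siRNAs turned to -0.0729 with quantile normalization. The causes were not tested. All genes called numbered from 0 to 485 for the siRNA term against 255 as reported. No paired analysis other than the line block was possible because the labels give no replicate numbers. Depth limits CA9 in Huh1 and ANKRD37 in both lines, each with at most 34 reads.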

Other observations

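The 2 carbonic anhydrase genes of the HIF target lists stood in opposite lines. CA12 was at 1.502 RPKM with ODC1 siRNA and 2.31 RPKM with control siRNA in Huh7, against 27.6 and 26.9 RPKM in Huh1 (Huh7 minus Huh1 log2 difference -3.30, SE 0.13, limma adjusted p = 8.44e-08), whereas CA9 was higher in Huh7. In both genes the Huh7 library with ODC1 siRNA was below that with control siRNA. Among the other HIF targets outside glycolysis, 24 of 40 were called higher and 12 lower in Huh7 than in Huh1, against 43.1% and 30.8% of all genes. The matrix enzyme gene LOXL2 (31.2 and 26.4 RPKM in Huh7, 0.117 and 0.0784 RPKM in Huh1 with ODC1 and control siRNA) and the chemokine receptor gene CXCR4 (17.6 and 17.4 RPKM in Huh7, 0.0532 RPKM and listed at 0 in Huh1) were found almost only in Huh7. HMOX1, the heme oxygenase gene, was at 6.03 and 6.39 RPKM in Huh7 against 166 and 206 RPKM in Huh1. These genes were chosen after their values were seen.

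EPO, the classical HIF target made by fetal liver, was listed at 0 in both Huh1 libraries and stood at 0.221 RPKM with ODC1 siRNA and 0.616 RPKM with control siRNA in Huh7, below the filter of 1 RPKM. It was not tested and was chosen after its values were seen.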
